A study of Drosophila melanogaster with 58 samples.

Results

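Pupal wings of female *Drosophila melanogaster* that carried the transgenic control genotype were compared with wild-type wings at 24 h after puparium formation (APF). The comparison holds 4 of the 24 RNA-seq libraries of the series, 2 of control wings and 2 of wild-type wings, and all genes were considered. Control flies, labelled flp control, were mutant for *w*, carried *y* and *hs-FLP* with *w* on one of the X chromosomes, and had single copies of *tub>CD2>GAL4* with *UAS-GFP* and of *tub-gal80TS*. In them a heat shock drives the FLP recombinase, which cuts out the CD2 cassette and lets the *tubulin* promoter express GAL4, and GAL4 then switches on GFP. The temperature-sensitive GAL80 holds GAL4 back while animals are kept cool. Larvae of this genotype were heat shocked, then kept cool, and moved to a warmer temperature during pupal life until they reached the developmental equivalent of 24 h APF. The wild-type wings are labelled only as wild type, and their strain, rearing temperature and any heat shock are not stated in the sources used here. Control wings carried the FLP, GAL4, GFP and GAL80 transgenes and the marker mutations, and went through the heat shock and the temperature shift. Effects of these, and of any difference in rearing or genetic background from the wild-type wings, cannot be told apart. Labels do not say that replicates came from separate crosses, so p-values measure the spread between libraries, which may be technical.

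At 24 h APF wild-type wing cells have finished their last divisions and enter a stable nondividing state, G0. A pulse of the steroid hormone ecdysone at this time binds the receptor EcR/Usp and switches on a cascade of nuclear receptors and other transcription factors, and the wing epithelium then builds hairs and secretes apical matrix and cuticle. Heat shock acts through the factor Hsf, which binds heat shock elements in front of genes for chaperones such as *Hsp70*. The *hs-FLP* transgene is driven by such a promoter.

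The control libraries held 11201219 and 15607710 reads on genes, and the wild-type libraries 7512920 and 1900774. A count of 3 reads, taken as the floor of detection, equalled 0.268 and 0.192 CPM (counts scaled to a common library total, with TMM-scaled totals for the gene levels below) in control wings and 0.399 and 1.58 CPM in wild-type wings. Replicates correlated across genes (log CPM) at 0.987 in control wings and 0.965 in wild-type wings. All 24 libraries were fitted together for 9958 genes with edgeR's quasi-likelihood test, and a gene was called at an adjusted p below 0.05 with a log2 fold change (control minus wild type) above 1 or below -1. Counting intervals and floors below cover counting error only.

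Control and wild-type wings differed widely. At 24 h 1850 genes were higher in control wings, 18.6% of those tested, and 1746 were lower, 17.5%. An adjusted p below 0.05 without a fold threshold was reached by 5138 genes. The median log2 fold change over all genes was 0.01, with quartiles at -0.90 and 0.93. With every library thinned at random to 1900774 reads, the total of the shallowest one, 1461 genes were higher and 1562 lower. Scaling by library totals alone, which moves the median of all genes to -0.31 on the log2 scale, gave 1254 higher and 2475 lower genes, so the split between directions depended on the scaling. Under it the list medians of heat shock, stress and cuticle genes given below were below 0 instead of above 0, each moved by about the shift of all genes. Calls were made over the whole range of abundance: 25.9% of the 2490 genes with the lowest mean level were called and 47.3% of the 2490 with the highest.

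Whole classes of RNA took different shares of the counts in control and wild-type wings. Genes for small noncoding RNAs (snoRNA, snRNA, scaRNA and tRNA) took 0.417% and 0.352% of the counts in control wings, against 0.0113% and 0.0198% in wild-type wings. Transcripts of the mitochondrial genome took 0.310% and 0.255% in control wings, against 7.08% and 9.34% in wild-type wings. Genes for cytoplasmic ribosomal proteins took 5.49% and 5.58% in control wings, against 12.5% and 15.9% in wild-type wings. In each class the control and wild-type libraries did not overlap. The same held over the series: in the small noncoding and mitochondrial classes and the ribosomal protein class, all 12 transgenic libraries lay on one side of all 12 wild-type libraries, whatever their stage or UAS transgenes. No date or batch of the libraries is given in the sources used here. Effects of genotype and of any difference in how the libraries were made cannot be told apart.

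**Figure D1:**
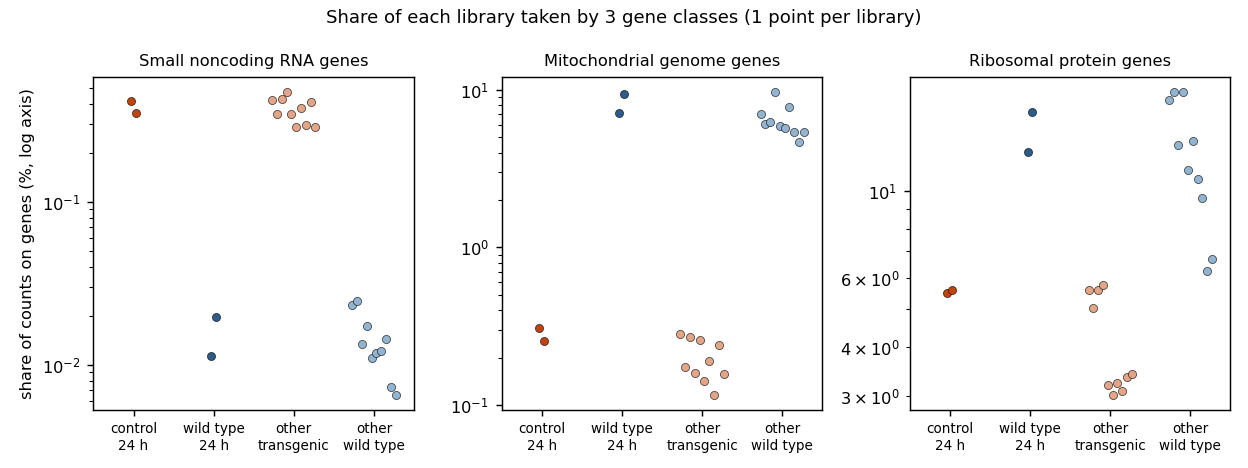
Share of the counts on genes (%, log axis) taken by small noncoding RNA genes, genes of the mitochondrial genome and ribosomal protein genes, with 1 point per library for control 24 h (2), wild-type 24 h (2), other transgenic (10) and other wild-type (10) libraries. Small noncoding RNA was at 0.352% or more in both control libraries and at 0.0198% or less in both wild-type libraries, and mitochondrial RNA showed the reverse order.

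Among small noncoding RNA genes 69 of the 128 tested were higher in control wings and 14 were lower, beside 18.6% and 17.5% of all genes. Their median log2 fold change was 2.81. In the fit with length and GC offsets described below, 50 were higher and 23 lower, beside 11.9% and 9.51% of all genes. The 70 tested snoRNAs named as guides of pseudouridylation, which steer the conversion of uridine to pseudouridine in ribosomal RNA, gave 41 higher and 3 lower, with a median of 2.74. The 20 tested snoRNAs named as guides of ribose methylation, which are shorter (median 81.5 bases against 140.5), gave 5 higher and 7 lower, with a median of -2.20. *RNaseMRP:RNA*, the RNA subunit of an enzyme that processes ribosomal RNA, had 38148 and 59087 counts in control wings and 56 and 18 in wild-type wings. Its log2 fold change was 9.12 ± 0.33 (SE; edgeR adjusted p = 7.3e-13). *snoRNA:SC35-a* had 1042 and 1382 counts in control wings and 1 and 1 in wild-type wings, a ratio of 533 with a 95% counting interval from 147 to 4403. *scaRNA:MeU5-C46*, which guides a modification of a spliceosomal RNA, had 4691 and 5696 counts in control wings and 7 and 0 in wild-type wings (log2 fold change 9.37 ± 0.37, edgeR adjusted p = 1.6e-12).

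The 5 copies of the pseudouridylation guide *snoRNA:Psi18S-1377*, which lie side by side on the minus strand of chromosome 3R, show how unequal members of one family were. Copy d (chr3R:30207156-30207291, dm6) had 4856 and 6496 counts in control wings, against 3 and 1 in wild-type wings. The other copies had far fewer reads but differed in the same direction. Copy a (chr3R:30207745-30207883) had 139 and 126 counts in control wings, against 3 and 3 in wild-type wings. Copy b (chr3R:30207493-30207630) had 159 and 164 counts in control wings, against 2 and 2 in wild-type wings. Copy c (chr3R:30207322-30207458) had 67 and 86 counts in control wings, against 5 and 2 in wild-type wings. All 5 copies were called, with copy e (chr3R:30206976-30207112) at 90 and 109 counts in control wings and 2 and 0 in wild-type wings, and edgeR adjusted p between 1.6e-12 and 3e-04. Copies a, b, c and e are shown beside copy d after their values were seen. The copies share between 68.5% and 86.0% of their bases pairwise, so how reads divided among them is uncertain. Their RefSeq genome sequences are shown to let the copies be compared, with the ACA box that defines this class of snoRNA, near the 3′ end, in capitals.
snoRNA:Psi18S-1377a: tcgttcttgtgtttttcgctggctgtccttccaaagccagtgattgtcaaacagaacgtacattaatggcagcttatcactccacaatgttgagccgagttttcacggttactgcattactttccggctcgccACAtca
snoRNA:Psi18S-1377b: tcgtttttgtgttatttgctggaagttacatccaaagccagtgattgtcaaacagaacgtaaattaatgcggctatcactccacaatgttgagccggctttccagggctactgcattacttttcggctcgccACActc
snoRNA:Psi18S-1377c: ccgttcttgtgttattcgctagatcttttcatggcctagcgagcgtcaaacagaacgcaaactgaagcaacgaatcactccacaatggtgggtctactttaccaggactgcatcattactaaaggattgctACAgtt
snoRNA:Psi18S-1377d: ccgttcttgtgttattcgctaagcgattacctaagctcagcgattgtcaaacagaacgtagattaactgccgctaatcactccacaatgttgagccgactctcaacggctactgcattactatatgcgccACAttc
snoRNA:Psi18S-1377e: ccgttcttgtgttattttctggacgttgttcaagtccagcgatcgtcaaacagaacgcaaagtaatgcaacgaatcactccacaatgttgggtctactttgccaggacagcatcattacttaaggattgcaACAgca

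Every mitochondrial gene that was tested, 18 of 18, was lower in control wings, with a median log2 fold change of -5.66. The genes are poor in GC, and with length and GC offsets 8 stayed lower and 5 were higher, with a median of -1.62. The offsets were fitted with these genes among the others, so they can take out part of these genes' own difference. *mt:lrRNA*, the large ribosomal RNA of mitochondria, had 473 and 648 counts in control wings, against 409160 and 131744 in wild-type wings. *mt:ND3*, a subunit of respiratory complex I, had 0 and 6 counts in control wings, against 2229 and 1096 in wild-type wings. *mt:ATPase6*, a subunit of ATP synthase, had 55 and 82 counts in control wings, against 7976 and 2623 in wild-type wings. Of 66 nuclear oxidative phosphorylation genes 21 were lower and 2 higher (median -0.61), and 13 and 6 with the offsets, while over all genes 17.5% were lower, and 9.51% with the offsets. Most of these nuclear genes did not pass the test. *ATPsynbeta*, the catalytic subunit of ATP synthase, was at 156 and 145 CPM in control wings and at 706 and 717 CPM in wild-type wings (log2 fold change -2.24 ± 0.20, edgeR adjusted p = 8.3e-08). *ND-AGGG*, a complex I subunit, rose, with 18.55 and 22.1 CPM in control wings and 4.38 and 5.72 CPM in wild-type wings.

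Part of the genes of protein synthesis and breakdown were lower in control wings, and the counts below stand beside 17.5% lower over all genes and 9.51% with the offsets. Of 80 ribosomal protein genes 46 were lower and none was higher, with a median of -1.24, and with the offsets 28 were lower and 2 higher. *RpL39*, a very short protein of the large ribosomal subunit, was at 51.0 and 46.8 CPM in control wings, against 1399 and 2164 CPM in wild-type wings. *RpL5*, another large-subunit protein, was at 339 and 369 CPM in control wings, against 2572 and 2834 CPM in wild-type wings. Of 70 mitochondrial ribosomal protein genes 29 were lower and none was higher (median -0.80), and 14 and 1 with the offsets. Of 34 proteasome genes 14 were lower and none was higher (median -0.83), and with the offsets 6 were lower. *Prosalpha5*, a subunit of the proteasome core, was at 13.4 and 13.45 CPM in control wings and at 87.2 and 95.2 CPM in wild-type wings. Of 28 glutathione transferase genes, which detoxify reactive compounds, 12 were lower and none was higher (median -1.07), and with the offsets 4 were lower and 2 higher.

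Fold changes followed the summed exon length of the gene, which merges the exons of all its annotated transcripts. Among nuclear protein-coding genes the log2 fold change correlated with summed exon length at a Spearman's rho of 0.50 and with exonic GC content at 0.30, across 8972 genes that are not independent. In genes with 500 to 1000 exon bases 433 of 1103 were lower and 42 higher in control wings (median -0.94). In genes with over 8000 bases 270 of 450 were higher and 10 lower (median 1.40). At 44 h, where the control and wild-type libraries are other ones, the same 2 classes had medians of -0.53 and 1.53. To see which calls hold without this trend, the counts were fitted again with each library's smooth trend on exon length and GC content as an offset, an alternative chosen after seeing the data. In this fit 1164 of 9749 genes (11.9%) were higher in control wings and 927 (9.51%) were lower, and 878 of the 1850 higher genes and 774 of the 1746 lower genes were called in both fits. Values from this second fit are given below as length-adjusted. It also takes out a true difference that follows length or GC content, and what produced the trend was not tested.

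**Figure D2:**
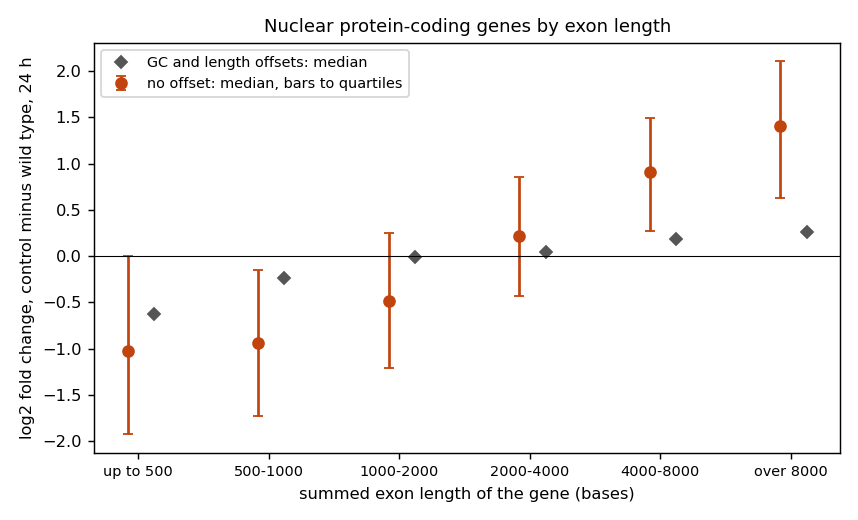
Log2 fold change (control minus wild type, 24 h) of nuclear protein-coding genes in 6 classes of summed exon length, as the median with bars to the quartiles, and the median of the length-adjusted fit as grey diamonds. The median goes up with length to 1.40 in genes over 8000 bases, and lies between -0.63 and 0.26 in the length-adjusted fit.

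Genes that the transgenes or marker mutations touch were examined one by one. *w* (*white*, chrX:2790599-2796466), an eye pigment transporter that is mutant in the control genotype and whose short form is the usual marker of inserted transgenes, had 314 and 369 counts in control wings, against 1 and 0 in wild-type wings. The ratio was 300.3, with a 95% counting interval from 53.7 to 11880. All 10 other transgenic libraries had *w* at 22.3 to 80.9 CPM, and all 10 other wild-type libraries had none. *y* (*yellow*), a cuticle pigment gene named in the control genotype, had 78 and 38 counts in control wings and 1 and 0 in wild-type wings (edgeR adjusted p = 0.038). This call was lost without control replicate 1 (adjusted p = 0.14), wild-type replicate 1 (0.28) or wild-type replicate 2 (0.096), and over the alternatives the adjusted p reached 0.28.

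*alphaTub84B*, the tubulin gene whose promoter drives the GAL4 cassette, was at 2556 and 2449 CPM in control wings and at 1932 and 1306 CPM in wild-type wings. The log2 difference of 0.63 ± 0.21 is under the fold threshold (edgeR adjusted p = 0.016). Length-adjusted, it was 0.35 (edgeR adjusted p = 0.11). Control wings lack the UAS transgenes for cell cycle genes. *E2f1*, the activating E2F factor, was at 490.5 and 537 CPM in control wings and 291 and 252.5 CPM in wild-type wings (log2 fold change 0.92 ± 0.26, edgeR adjusted p = 0.0067; length-adjusted 0.28, adjusted p = 0.42). It passed the fold threshold without control replicate 1 (1.04) or without wild-type replicate 1 (1.05). *Dp*, *CycD* and *Cdk4* had log2 fold changes of 0.26, 0.45 and -0.49 (edgeR adjusted p = 0.24, 0.077 and 0.083). All 4 libraries are from females. *Sxl*, the switch gene of female development, was at 482 and 655.5 CPM in control wings and 311 and 305 CPM in wild-type wings (log2 fold change 0.88, edgeR adjusted p = 0.0019), and passed the fold threshold without control replicate 1 (1.14). Of the male-specific RNAs, *lncRNA:roX2* had 0 and 0 counts in control wings and 2 and 2 in wild-type wings. *lncRNA:roX1* had 33 and 72 counts in control wings (2.97 and 4.72 CPM) and 155 and 110 in wild-type wings (17.0 and 44.9 CPM). The difference in *lncRNA:roX1* (log2 fold change -2.88, edgeR adjusted p = 0.0083) was lost without control replicate 1 (adjusted p = 0.065) or wild-type replicate 2 (0.084).

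*Hsp70Bb* (chr3R:12505793-12508139) was the heat shock gene that stood furthest apart. It had 396 and 327 counts in control wings, against 0 and 0 in wild-type wings, which makes it at least 106-fold higher at a floor of 3 counts over the wild-type group. The other transgenic libraries had 28.55 to 113 CPM and the other wild-type libraries 0 to 15.55 CPM, without overlap. *Hsp70Ab*, a nearly identical copy, had 49 and 59 counts in control wings and 0 and 0 in wild-type wings, and its call was lost without wild-type replicate 1 (edgeR adjusted p = 0.19). *Hsp70Ab* was chosen after its values were seen. *Hsp70Bc*, a copy 936 bases from *Hsp70Bb*, was not called (log2 fold change -1.39, edgeR adjusted p = 0.47). How reads divided among the *Hsp70* copies, and between them and transgenes with *Hsp70* sequence, is uncertain. The promoter of *Hsp70Bb* (chr3R:12505543-12505842, plus strand, dm6, from RefSeq, 250 bases before to 50 after the annotated start) is shown because *hs-FLP* uses an *Hsp70* promoter. Capitals mark the match to a heat shock element of 3 units, GAA-NN-TTC-NN-GAA, searched on both strands; 58 of 13667 promoters of this length (0.424%) hold it.
Hsp70Bb promoter: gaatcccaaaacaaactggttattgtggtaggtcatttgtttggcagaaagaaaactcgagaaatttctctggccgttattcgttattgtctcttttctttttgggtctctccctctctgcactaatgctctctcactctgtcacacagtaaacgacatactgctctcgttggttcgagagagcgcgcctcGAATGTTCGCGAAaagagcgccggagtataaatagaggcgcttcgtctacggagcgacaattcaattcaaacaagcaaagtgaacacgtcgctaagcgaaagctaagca

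The heat shock list, with *Hsp70Bb* and *Hsp70Ab* in it, had members called in both directions. Of 23 genes tested 5 were higher and 3 lower (median 0.13), beside 18.6% and 17.5% of all genes, and 6 and 2 in the length-adjusted fit. One of the 5, *hop*, is the JAK kinase of JAK/STAT signaling and entered through a symbol that differs only in case from a chaperone gene. *lncRNA:Hsromega*, a noncoding RNA that gathers RNA-binding proteins in nuclear bodies under heat, was at 2237 and 2373 CPM in control wings, against 233 and 243.5 CPM in wild-type wings. Its log2 fold change was 3.27 ± 0.27 (edgeR adjusted p = 2.7e-08), and 3.63 length-adjusted. *stv*, a co-chaperone of Hsp70, was higher by 1.84 (adjusted p = 3.5e-05). Other chaperones were lower: *Hsp83*, the fly Hsp90, was at 141 and 75.9 CPM in control wings and 377 and 387 CPM in wild-type wings, and *Hsp67Bc* at 5.85 and 5.51 CPM in control wings and 19.7 and 24.5 CPM in wild-type wings. *Hsp23*, a small chaperone, was at 763 and 659.6 CPM in control wings and 1935 and 2280 CPM in wild-type wings, and was not called when length-adjusted (-0.77). *Hsf* itself was at 65.6 and 72.2 CPM in control wings and 60.9 and 65.4 CPM in wild-type wings, ranges that lie side by side (log2 fold change 0.13, edgeR adjusted p = 0.58).

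A few protein-coding genes were present in one group and all but absent from the other. *CG12256* (chr3R:12225282-12226339) had 0 and 0 counts in control wings and 1085 and 268 in wild-type wings, and so was at least 1026-fold lower in control wings at a floor of 3 counts over the group. Its antisense gene, which covers 85.1% of its exon bases, fell too (-6.51, edgeR adjusted p = 0.0042), and whether the authors' counting used strand is not given in the sources used here. *Muc96D*, a mucin-like gene that lies within *Fur1* but outside its exons, had 404 and 776 counts in control wings and 1 and 0 in wild-type wings, a ratio of 519 (95% counting interval 92.9 to 20510). In all 10 other transgenic libraries it was at 20.9 to 53.1 CPM and in all 10 other wild-type libraries at 0 to 0.218 CPM. *Yp1*, a yolk protein gene, had 100 and 119 counts in control wings and 0 and 0 in wild-type wings, at least 32.1-fold higher at a floor of 3 counts over the wild-type group. An antisense gene covers 54.3% of its exon bases. Not all transgenic libraries had it: the other 10 ranged from 0 to 68.4 CPM. *CG14625* had 2666 and 1590 counts in control wings and 0 and 4 in wild-type wings (log2 fold change 8.80 ± 1.06, edgeR adjusted p = 1.7e-06). This split did not hold over the series. Control wings had *CG14625* at 240 and 104 CPM, and the other 24 h transgenic libraries at 2.99 to 8.46 CPM. Wild-type wings at 44 h had it at 997 and 2028 CPM.

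A pair of overlapping genes on 3R moved in opposite directions. *sea*, a mitochondrial citrate carrier gene, had 79 and 111 counts in control wings and 0 and 0 in wild-type wings, at least 27.85-fold higher at the same floor. *fabp*, for a fatty acid binding protein, had 13 and 8 counts in control wings, against 233 and 52 in wild-type wings (log2 fold change -4.85 ± 0.43, edgeR adjusted p = 6.3e-08). In the annotation used here both span chr3R:11559896-11567054 on the minus strand, and 85.2% of the exon bases of *sea* lie in exons of *fabp*, so reads between them could be assigned only where they differ. The other 20 libraries split the same way, with *sea* at 6.17 to 25.5 CPM in transgenic and 0 to 0.234 CPM in wild-type libraries, and *fabp* at 0.531 to 2.96 CPM in transgenic and 22.4 to 109 CPM in wild-type libraries. Another pair of genes that lie close together were both lower in control wings. *Osi22*, an Osiris family gene, was at 5.49 and 8.135 CPM in control wings and 184 and 135 CPM in wild-type wings. *CG15888*, 4099 bases away, was at 0.991 and 1.44 CPM in control wings and 61.5 and 53.1 CPM in wild-type wings. The gene *apn* lies between them and was not called (-3.79, edgeR adjusted p = 0.12). The noncoding RNA *lncRNA:CR40469* was at 18.6 and 22.2 CPM in control wings and 248 and 1096 CPM in wild-type wings, which did not overlap although the wild-type replicates differed widely.

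**Figure D3:**
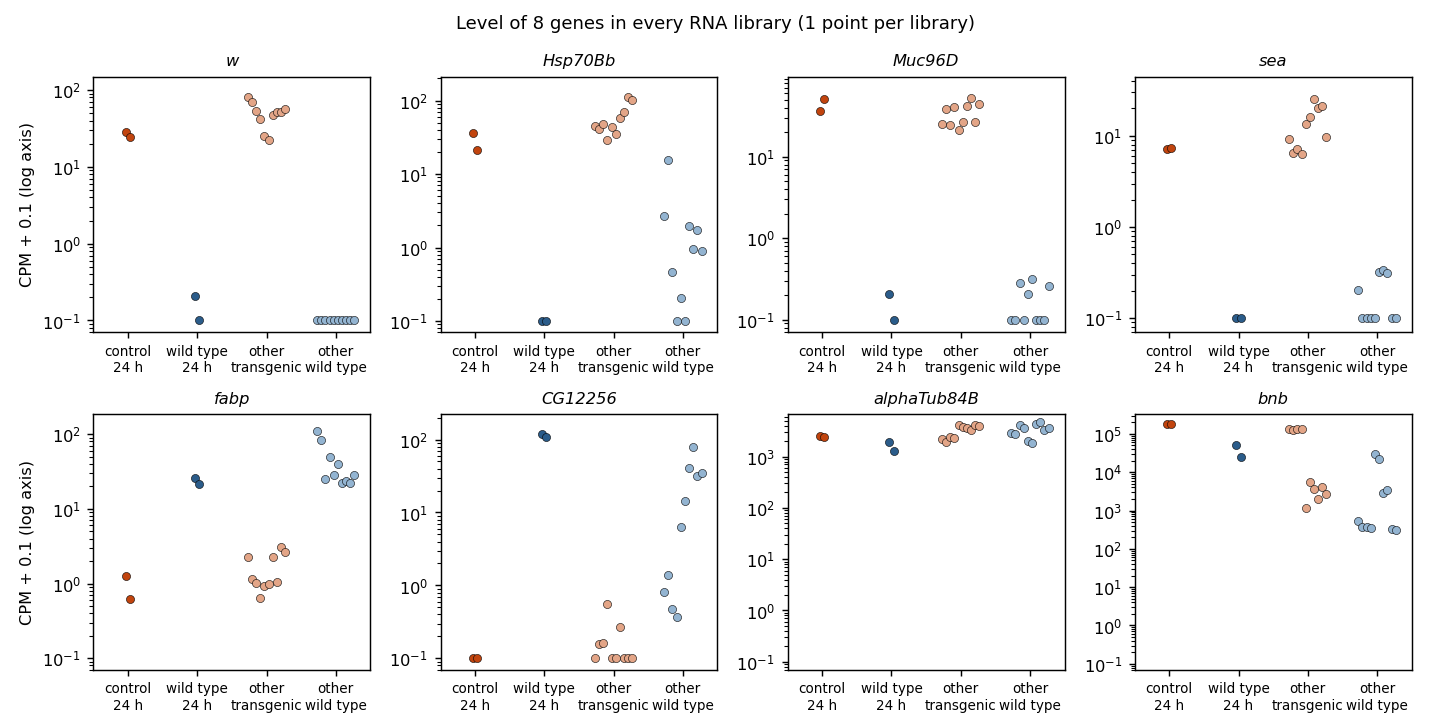
Level of 8 genes in every RNA library (CPM plus 0.1, log axis), with 1 point per library for control 24 h, wild-type 24 h, other transgenic and other wild-type libraries. In *w*, *Muc96D*, *sea* and *fabp* all transgenic libraries are apart from all wild-type libraries, whereas in *alphaTub84B* the other transgenic and other wild-type libraries overlap.

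The most abundant transcript of control wings took a smaller share of wild-type libraries. *bnb* (*bangles and beans*) took 17.9% and 17.4% of all counts in control wings, against 6.10% and 3.25% in wild-type wings. Its log2 fold change was 2.25 ± 0.51 (edgeR adjusted p = 0.0012). In the other 24 h transgenic libraries it took 14.3% to 14.95%, and in wild-type wings at 36 h 0.2875% and 0.368%, so its share differed between stages too.

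Of the ecdysone response genes 13 of the 29 tested were higher in control wings and 1 was lower, beside 18.6% and 17.5% of all genes, with a median of 1.27 (7 higher, 1 lower and a median of 0.67 in the length-adjusted fit). *EcR*, the hormone receptor, was at 704 and 614 CPM in control wings and 168 and 138 CPM in wild-type wings (log2 fold change 2.10 ± 0.34, edgeR adjusted p = 3.9e-05, length-adjusted 1.41). *Eip75B*, an early nuclear receptor of the cascade, was at 2207 and 2228 CPM in control wings and 359 and 225.5 CPM in wild-type wings (2.92 ± 0.45, adjusted p = 2.6e-05, length-adjusted 1.71). *Eip74EF*, an early ETS factor, was at 416 and 365 CPM in control wings and 91.0 and 55.6 CPM in wild-type wings. All 3 have a long summed exon length and were called in both fits. *ImpE2*, an ecdysone-induced gene of imaginal discs, was at 27520 and 28920 CPM in control wings and 12400 and 10980 CPM in wild-type wings (1.27, adjusted p = 0.012), and was not called without wild-type replicate 2 (adjusted p = 0.072). *MsrA*, a methionine sulfoxide reductase induced by ecdysone, fell by 1.26, and by 0.36 in the length-adjusted fit (adjusted p = 0.33).

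Genes that change with stage in wild-type wings were compared next. Between 18 h and 36 h, stages that share no library with the 24 h comparison, 2010 genes were higher at 36 h (20.2% of those tested) and 1597 lower (16.0%). Of the 2010 genes 525 (26.1%) were higher in control wings at 24 h and 249 (12.4%) lower. Of the 1597 genes 167 (10.5%) were higher in control wings and 387 (24.2%) lower. Over all genes the shares were 18.6% and 17.5%, so in both classes more of the calls lay toward the later stage. In the length-adjusted fit the contrast was smaller: 12.8% and 9.94% of the genes higher at 36 h, and 9.63% and 12.3% of those lower at 36 h, were higher and lower in control wings, beside 11.9% and 9.51% of all. With scaling by library totals 12.6% of all genes were higher and 24.9% lower. Beside that the genes higher at 36 h gave 18.05% higher and 17.1% lower, and those lower at 36 h gave 7.12% higher and 32.5% lower. Single genes went either way. *Osi22*, *CG15888*, *dy* and *m*, higher at 36 h by 11.35, 10.77, 9.55 and 8.35, were lower in control wings. *f* and *dyl*, higher at 36 h by 5.48 and 6.01, were higher in control wings. Calls of *m* and *dyl* were lost in some alternatives. Whether control wings differed in stage was not tested.

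The Osiris genes, a family of secreted or membrane proteins switched on when cuticle is laid down, gave 6 higher and 2 lower of 20 tested (median 1.36), beside 18.6% and 17.5% of all genes, and 5 and 2 in the length-adjusted fit. *Osi4* had 3485 and 2094 counts in control wings and 11 and 26 in wild-type wings (log2 fold change 5.71 ± 0.87, edgeR adjusted p = 2.3e-05). *Osi7* was at 1364 and 637 CPM in control wings and 14.7 and 161 CPM in wild-type wings, so the wild-type replicates were further apart on the log scale. *Osi12* behaved alike, with 1048 and 477 CPM in control wings and 7.55 and 125 CPM in wild-type wings, and was not called without wild-type replicate 1 (edgeR adjusted p = 0.055). *Osi22* was lower, as above. The cuticle list comes from the study of this tissue and is not independent evidence. Of its 145 tested genes 28 were higher and 24 lower (median 0.19), shares near the 18.6% and 17.5% of all genes.

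In the list of wing hair and apical matrix genes 8 were higher and 3 lower of 20 (median 0.89), beside 18.6% and 17.5% of all genes. In the length-adjusted fit 3 were higher and 3 lower (median 0.29). *f* (*forked*), which bundles actin in bristles and hairs, was at 319.5 and 247 CPM in control wings and 19.8 and 18.4 CPM in wild-type wings (log2 fold change 3.88 ± 0.31, edgeR adjusted p = 2.1e-08). *dpy* (*dumpy*), a giant protein that ties the epithelium to cuticle, was at 7338 and 7775 CPM in control wings and 695 and 385 CPM in wild-type wings (3.80 ± 0.34, adjusted p = 7.7e-08), and 1.12 when length-adjusted (adjusted p = 0.0011). The zona pellucida genes *dy* (*dusky*) and *m* (*miniature*), which shape wing cells late, were lower. *dy* was at 7.745 and 7.545 CPM in control wings and 29.99 and 42.5 CPM in wild-type wings (-2.22, adjusted p = 0.0016). *m* was at 12.2 and 10.04 CPM in control wings and 24.4 and 41.3 CPM in wild-type wings, and was not called without control replicate 2 (adjusted p = 0.056) or wild-type replicate 2 (0.074). *knk*, needed for chitin organization, fell by 1.296 (adjusted p = 2.8e-05), and by 0.99 with all libraries thinned. An antisense gene covers 64.0% of its exon bases.

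Cell cycle genes were called in both directions. The list comes from a supplement on these samples. Of its 286 tested genes 34 were higher and 49 lower (median -0.03), beside 18.6% and 17.5% of all genes, and 17 and 30 in the length-adjusted fit, of which 37 were called in both. *CycE*, the cyclin of S phase entry, was at 41.8 and 38.1 CPM in control wings and 9.74 and 10.2 CPM in wild-type wings (log2 fold change 2.01 ± 0.23, edgeR adjusted p = 7.7e-07, length-adjusted 1.59). *Bub1*, a kinase of the spindle checkpoint, was at 85.55 and 103 CPM in control wings and 22.2 and 19.2 CPM in wild-type wings. Other mitotic genes were lower. *Spc25*, a kinetochore protein, was at 3.06 and 4.26 CPM in control wings and 19.15 and 22.5 CPM in wild-type wings (-2.46 ± 0.22, adjusted p = 6.3e-08). *pim*, the fly securin, was at 2.25 and 2.62 CPM in control wings and 17.1 and 18.4 CPM in wild-type wings (-2.84 ± 0.28, adjusted p = 1.5e-07, length-adjusted -1.09). *CycE* and *Bub1* have a long summed exon length, and *Spc25* and *pim* a short one, at 5047, 4279, 968 and 978 exon bases.

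Of 19 genes that mark regions of the wing 9 were higher and 3 lower in control wings (median 0.55), beside 18.6% and 17.5% of all genes, and 6 and 3 in the length-adjusted fit (median 0.10). No difference between regions was tested. Members with a role in the wing pouch were among the higher ones: *nub*, a POU factor of the blade, was at 1062 and 1073 CPM in control wings and 224 and 132 CPM in wild-type wings (log2 fold change 2.58 ± 0.24, edgeR adjusted p = 1.0e-07, length-adjusted 1.82). *rn* (*rotund*), a zinc finger factor of the pouch, was at 548 and 536 CPM in control wings and 111 and 59.2 CPM in wild-type wings, and *kn* (*knot*), which patterns the central veins, at 302 and 306 CPM in control wings and 72.2 and 48.6 CPM in wild-type wings. *salm*, a target of Dpp signaling in the blade, was higher by 1.95 and by 0.75 when length-adjusted, which is under the fold threshold. The 3 lower genes are used outside the blade. *hth*, a homeodomain factor of the hinge and body wall, was at 413.5 and 417 CPM in control wings and 1488 and 1492 CPM in wild-type wings (-1.84 ± 0.26, adjusted p = 1.1e-05, length-adjusted -2.18). *tsh*, its partner in proximal tissue, was at 2.61 and 3.02 CPM in control wings and 38.9 and 29.4 CPM in wild-type wings (-3.61 ± 0.56, adjusted p = 2.8e-05). *Ubx*, the Hox gene of the haltere, was at 0.811 and 0.328 CPM in control wings and 17.7 and 18.4 CPM in wild-type wings (-5.03 ± 0.95, adjusted p = 2.0e-04) and was singled out after its values were seen. All 3 were lower in both fits. In bulk tissue, fewer cells of a region and less RNA per cell cannot be told apart.

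Some genes of stress, apoptosis and JNK signaling were higher in control wings: 11 of 36 were higher and 2 lower, with a list median of 0.03, beside 18.6% and 17.5% of all genes, and 8 were higher and 2 lower in the length-adjusted fit. *upd3*, a cytokine-like ligand induced by damage, was at 61.2 and 75.3 CPM in control wings and 11.2 and 7.35 CPM in wild-type wings (log2 fold change 2.80 ± 0.23, edgeR adjusted p = 3.1e-08, length-adjusted 2.84). *upd1*, its relative, was at 199 and 186 CPM in control wings and 46.1 and 38.4 CPM in wild-type wings (2.18 ± 0.21, adjusted p = 1.4e-07). *Socs36E*, a target and inhibitor of the pathway, was higher by 2.03 and *Mmp1*, a matrix protease induced by JNK, by 2.15, and all 4 were called in both fits. *Irbp18*, a bZIP factor, fell by 1.13, and by 0.03 in the length-adjusted fit, and was also not called without control replicate 1 (-0.87) or wild-type replicate 2 (-0.89). *p53*, named after its values were seen, was the other lower gene (-1.60, edgeR adjusted p = 0.00023).

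**Figure D4:**
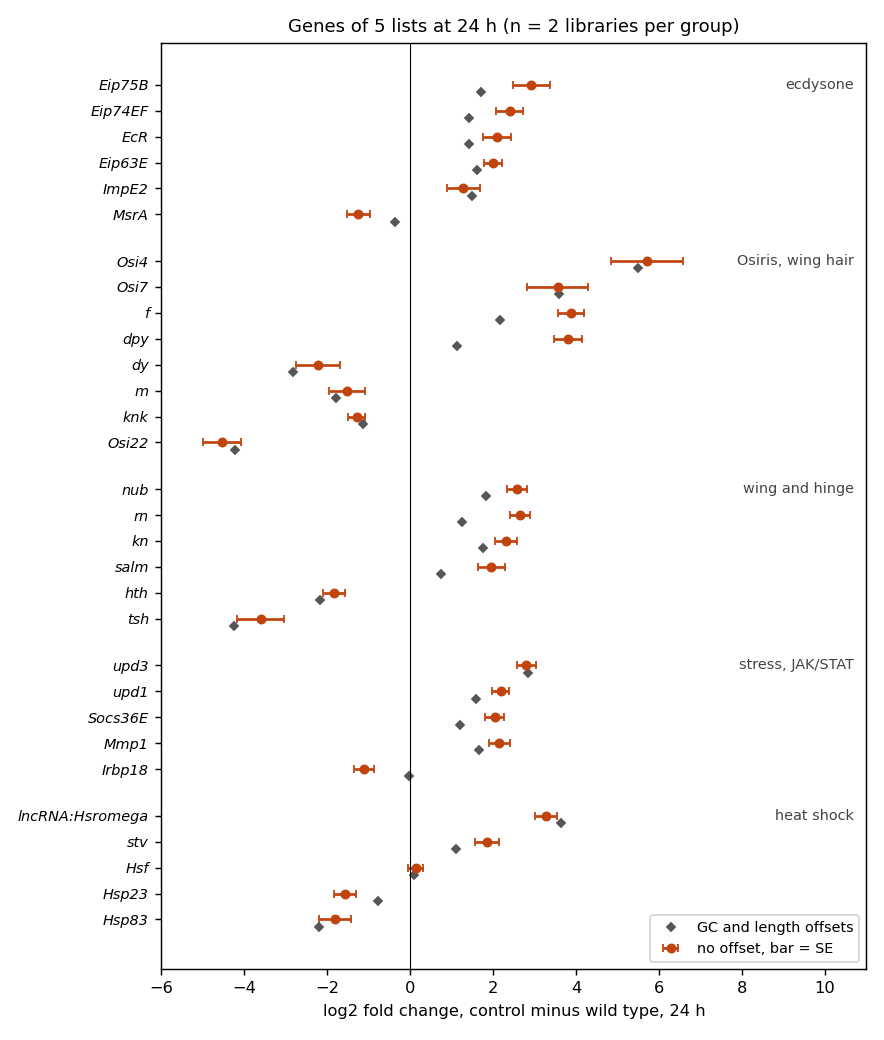
Log2 fold change (control minus wild type, 24 h) of genes from 5 lists, with the SE as bars (n = 2 libraries per group), and the length-adjusted value as grey diamonds. *hth* and *tsh* lie left of 0 and *nub* and *rn* right of 0 in both fits, whereas *Irbp18* and *MsrA* move close to 0 when length-adjusted.

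Markers of cell types other than the epithelium were measured as lists. The 16 hemocyte markers summed to 414 and 362 CPM in control wings and 189 and 120 CPM in wild-type wings, and 4 of 15 tested were higher and 2 lower (median 0.77), beside 18.6% and 17.5% of all genes. In the length-adjusted fit 1 was higher and 1 lower (median 0.08). *Ppn* alone made up 249.9 and 199 CPM of the sums in control wings and 82.6 and 34.7 CPM in wild-type wings. The 2 lower ones, *NimC1*, a phagocytosis receptor, and *He*, a membrane protein of blood cells, and *PPO3*, a phenoloxidase among the higher ones, were singled out after their values were seen. *He* had 0 and 0 counts in control wings and 2 and 1 in wild-type wings, and was not called without any 1 of the 4 libraries (edgeR adjusted p = 0.097 to 0.14). *NimC1* was at 2.43 and 2.23 CPM in control wings and 4.60 and 8.17 CPM in wild-type wings, and was not called without control replicate 1 (adjusted p = 0.056), control replicate 2 (0.07) or wild-type replicate 2 (0.13). *PPO3* had 35 and 34 counts in control wings and 4 and 1 in wild-type wings, and was not called without wild-type replicate 1 (adjusted p = 0.11). *srp*, the GATA factor of blood and fat body, was at 49.7 and 52.8 CPM in control wings and 4.49 and 0.817 CPM in wild-type wings (log2 fold change 3.89 ± 0.30, edgeR adjusted p = 1.6e-08, length-adjusted 2.69). *Ppn* and *Pxn*, matrix proteins of hemocytes, were higher by 1.89 and 1.48, and by 0.08 and 0.08 when length-adjusted. The 26 muscle markers summed to 2136 and 2112 CPM in control wings and 893 and 706 CPM in wild-type wings, with 5 higher and 2 lower of 25 (median 0.06), a share of higher genes near that of all genes. In the length-adjusted fit 2 were higher and 2 lower (median -0.47). *Msp300* alone made up 937 and 892 CPM of the sums in control wings and 258 and 187 CPM in wild-type wings. The 2 lower ones, singled out after their values were seen, were *Act87E*, an actin, with 29 and 18 counts in control wings and 91 and 15 in wild-type wings, and *up*, troponin T, with 5 and 2 counts in control wings and 15 and 10 in wild-type wings. *Act87E* was not called without wild-type replicate 1 (adjusted p = 0.15) or control replicate 2 (0.051), and *up* was not called without wild-type replicate 2 (0.11) or control replicate 2 (0.15). *Mef2*, the muscle transcription factor, was higher by 2.14 (1.28 length-adjusted), *Zasp52*, a protein of the muscle Z disc, by 2.54 (0.72 length-adjusted) and *Msp300*, a giant nuclear-anchoring protein, by 2.04 (-0.16 length-adjusted). The 18 neuron markers summed to 677 and 674 CPM in control wings and 582 and 664 CPM in wild-type wings. Of the 16 tested 4 were higher and 5 lower, beside 18.6% and 17.5% of all genes, and 1 and 4 in the length-adjusted fit. The 4 higher ones were *brp* (1.87, length-adjusted 0.31), *futsch* (1.49, length-adjusted -0.48), *nSyb* (1.22, length-adjusted 1.04) and *elav* (1.09, length-adjusted 0.63). *Syt1*, the calcium sensor of synaptic vesicles, was at 6.39 and 5.25 CPM in control wings and 46.3 and 168 CPM in wild-type wings (-4.17 ± 0.53, adjusted p = 3.0e-06), and *fne*, an RNA-binding protein of neurons, at 26.1 and 25.8 CPM in control wings and 90.5 and 101 CPM in wild-type wings. The 14 fat body markers summed to 126 and 182 CPM in control wings and 262 and 153 CPM in wild-type wings, which overlap. Of the 13 tested 4 were higher and 3 lower, beside 18.6% and 17.5% of all genes, and 2 and 4 in the length-adjusted fit. *Apoltp*, among the higher ones, rose by 2.06 (0.80 length-adjusted). *Fbp2*, a fat body protein, was at 1.53 and 5.90 CPM in control wings and 35.5 and 17.2 CPM in wild-type wings, and was not called without wild-type replicate 1 (adjusted p = 0.064). The 19 sensory organ markers summed to 454 and 489 CPM in control wings and 290.5 and 239 CPM in wild-type wings. Of 16 tested 5 were higher and none lower. The 8 tracheal markers summed to 2183 and 2275 CPM in control wings and 1507 and 1010 CPM in wild-type wings (3 higher and 2 lower of 8). The 14 germline and male markers summed to 619 and 798 CPM in control wings and 408 and 406 CPM in wild-type wings (1 and 2 of 8). These counts stand beside 18.6% and 17.5% of all genes. In the length-adjusted fit 5 sensory organ markers were higher and 1 lower, with only 2 called in both fits. The tracheal markers then gave 1 and 1, and the germline and male markers 0 and 1, beside 11.9% and 9.51% of all genes. The part of other cell types in these results was not tested.

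Chromosome 4, the smallest, stood out among chromosome arms. Of its 75 tested protein-coding genes 31 (41.3%) were lower and 6 (8%) higher in control wings, beside 17.5% and 18.6% of all genes. On the other arms 11.3% to 20.5% were lower. The median log2 fold change of chromosome 4 was -0.90, while the medians of the other arms lay between -0.12 and 0.29. Its genes are poor in GC, at a median of 36.4% against 48.3% to 50.1% on the other arms. In the length-adjusted fit, which includes GC content, 12 were lower and 7 higher, beside 9.51% and 11.9% of all genes. The median was then -0.13. *CG31997*, on this chromosome, was at 73.0 and 81.2 CPM in control wings and 245 and 285 CPM in wild-type wings, a log2 fold change of -1.78 that became 0.19 when length-adjusted.

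At 44 h APF the same genotypes were sequenced in other libraries, 2 of each. There 2000 genes (20.1%) were higher in control than in wild-type wings and 1563 (15.7%) lower. Of the genes called at 24 h, 2245 were called in the same direction at 44 h, which is 62.4% of the 24 h calls and 63.0% of the 44 h calls, and 31 were called in opposite directions. Of the 1850 genes higher at 24 h 1316 were higher at 44 h, and of the 1746 lower genes 929 were lower. *w*, *Muc96D*, *sea*, *fabp* and *CG12256* were among those called at both stages. The difference between the effects was tested as an interaction. It was called for 323 genes in which the 44 h effect was the higher (3.24%) and 279 in which it was the lower (2.80%), and 271 of these were genes called at 24 h. These counts moved with single libraries: without control replicate 2 they were 139 and 148, without control replicate 1 127 and 264, without wild-type replicate 2 225 and 156, and without wild-type replicate 1 211 and 321. Library totals gave 166 and 873 and the offsets 216 and 340, so neither direction can be called the more frequent.

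**Figure D5:**
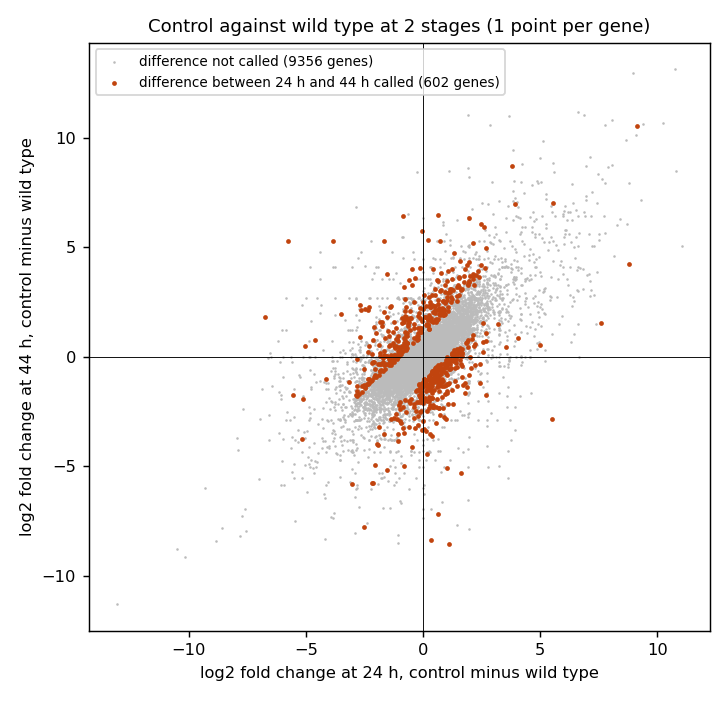
Log2 fold change (control minus wild type) at 44 h against that at 24 h, 1 point per gene for 9958 genes, with the 602 genes whose effects differ in the interaction test in orange. Most points follow the diagonal, and the orange points lie off it on both sides.

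The 20 libraries outside the comparison were examined for the genes called within it. For 753 of the 1850 higher genes (40.7%) all 10 other transgenic libraries were above all 10 other wild-type libraries in CPM, and over all genes tested this held for 8.56%. For 543 of the 1746 lower genes (31.1%) all transgenic libraries were below all wild-type libraries, which held for 6.14% of all genes. Transgenic libraries were made at 24 h and 44 h, and of these 20 libraries those at 44 h are the ones where both genotypes share a stage. Scaled by library totals, 354 of the genes called higher and 596 of those called lower were separated in this way. In the 15 alternative fits, which differ in tool, scaling, filter, depth, libraries and the length offset, 445 of the 1850 higher genes and 377 of the 1746 lower genes were called each time.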

How the data were processed

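Female wings were measured by RNA-seq (24 libraries); 34 FAIRE-seq samples were left aside. Libraries were made from Trizol RNA with a stranded mRNA kit. The authors deposited raw counts of reads per gene, and the submitters' processing notes name STAR, HTSeq and the dm6 build (and Bowtie2, which the methods give for FAIRE-seq). Versions, annotation and strand setting of the counting are not given in the sources used here. According to the methods the study tested its counts with DESeq2.

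Rows that name no gene were left out: reads on no feature made up 8.17% to 10.4% and ambiguous reads 0.872% to 0.990% of uniquely aligned reads in the 4 libraries compared. Of 17559 gene identifiers 306 had no entry in the annotation used for names and positions. Genes were filtered with filterByExpr (minimum count 10, minimum total 15), scaled by TMM and fitted with 1 coefficient per group in edgeR 4.0.16 (limma 3.58.1, R 4.3.3), with Benjamini-Hochberg adjustment over all genes tested. The fit was tested on simulated data. The biological coefficient of variation was 18.8%, and replicates differed by more than sampling noise (chi-square per degree of freedom 11.3 in control wings and 18.9 in wild-type wings). Alternatives were DESeq2 1.42.0, RLE scaling, library totals, other filters, thinning, fewer libraries, a replicate block and leaving out each library; the GC and exon length offsets (natural splines with 5 degrees of freedom) and scaling on nuclear protein-coding genes were chosen after seeing the data.

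The comparison and the gene lists were chosen with earlier results of these data known. Genes are named by a rule: up to 12 per direction with the largest fold changes among called genes whose 4 libraries do not overlap and whose higher group has 50 counts or more per library; up to 6 per direction with under 3 counts in each library of the lower group; up to 4 called members per list and direction with a mean of at least 10 CPM; the genes tied to the genotype or sex, whatever their values; and the most abundant called genes. Of the genes that pass it, those in the text are a selection.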

Additional observations from a re-analysis of the deposited data

Results flagged for a closer look

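The difference between control and wild-type wings was not the same at 44 h as at 24 h for 13 of the 104 genes followed. The test was the interaction term of edgeR's quasi-likelihood test with Benjamini-Hochberg adjustment. Over all genes tested the 44 h effect was called the higher for 3.24% and the lower for 2.80%. Most genes followed were named for their 24 h effect, so these shares are not of like sets. Values are the 44 h effect minus the 24 h effect on the log2 scale, with 2 libraries per group and stage.

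In 7 genes the 44 h effect was the higher. *RNaseMRP:RNA* differed by 1.43 (adjusted p = 0.032), as it was higher in control wings by 10.55 at 44 h and by 9.12 at 24 h. *RpL39* differed by 1.44 (adjusted p = 0.013), with effects of -3.75 at 44 h and -5.19 at 24 h. *upd1* differed by 1.11 (adjusted p = 0.042) and *Syt1* by 3.13 (adjusted p = 0.0088). *Cyp9b2*, a cytochrome P450 gene, differed by 2.60 (adjusted p = 0.018). *CG31997* differed by 1.46 (adjusted p = 0.0055). *Ubx* differed by 5.54 (adjusted p = 0.03), the largest of the 13, with effects of 0.51 at 44 h and -5.03 at 24 h. At 44 h *Ubx* had few counts, 2 and 28 in control wings and 7 and 11 in wild-type wings.

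In the others the 44 h effect was the lower. *CG14625* differed by -4.55 (adjusted p = 0.047), and remained higher in control wings at 44 h (4.25). *vri*, a transcription factor of the circadian clock, differed by -3.63 (adjusted p = 0.014), with effects of -1.19 at 44 h and 2.44 at 24 h. At 44 h the control libraries were far apart for *vri*, at 31.9 and 324 CPM, against 402 and 410 CPM in wild-type wings. The 44 h effect of *vri* was not called (edgeR adjusted p = 0.088). *Zasp52* differed by -2.34 (adjusted p = 0.0011), *Bub1* by -1.69 (adjusted p = 0.00057), *Su(H)*, the Notch pathway transcription factor, by -1.24 (adjusted p = 0.027) and *Mmp1* by -1.18 (adjusted p = 0.046).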

How the results depend on the processing

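Against 3596 calls at 24 h, DESeq2 made 3541, and leaving out 1 library gave 3032 (without wild-type replicate 2) to 3512 (without wild-type replicate 1). The GC and exon length offsets gave 2091 (1164 higher, 927 lower) and reversed *Msp300* (-0.16) and *CG31997* (0.19), neither past the threshold. Testing only genes with a mean of at least 10 CPM left 6190 genes, with 1189 higher at 24 h and 2368 called at 44 h. Without 1 library, higher calls ranged from 1462 to 2010 and lower calls from 1464 to 1582. The interaction between stages was less stable: its 602 calls became 1039 with library totals, 911 with every gene that has a count, 387 with thinned libraries, and 287 (without control replicate 2) to 532 (without wild-type replicate 1) with 1 library left out, at 381 without wild-type replicate 2 and 391 without control replicate 1. Higher genes separated in the other 20 libraries numbered 354 with library totals, against 753, and lower ones 596, against 543. Same-numbered control and wild-type libraries did not deviate together (correlation 0.0343 across genes), and a replicate block in the fit gave 3589 calls (1856 higher, 1733 lower). The cause of these changes was not tested. Depth limits the low genes: 3 counts are 1.58 CPM in the shallowest wild-type library.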

Other observations

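Of 46 cytochrome P450 genes, many of which detoxify, 12 were lower in control wings and 2 higher (median log2 fold change -0.79), beside 17.5% and 18.6% of all genes, and 6 and 1 with the length and GC offsets. *Cyp9b2* was at 7.02 and 7.61 CPM in control wings and 42.0 and 31.9 CPM in wild-type wings (-2.36 ± 0.36, edgeR adjusted p = 2.6e-05). *GstO3*, an omega-class glutathione transferase, was at 30.7 and 39.7 CPM in control wings and 109 and 144 CPM in wild-type wings (-1.84 ± 0.23, adjusted p = 2.9e-06). In both genes the groups did not overlap.

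Of 10 circadian clock genes 2 were higher and none lower, a share of higher genes near the 18.6% of all genes. *vri* was at 141 and 79.05 CPM in control wings and 21.3 and 18.8 CPM in wild-type wings (2.44 ± 0.62, edgeR adjusted p = 0.0028). The hour of dissection is not given in the sources used here. Of 16 immune genes 1 was higher and 3 lower, a share of lower genes near the 17.5% of all genes.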
